A study of Mus musculus with 17 samples.

Results

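The comparison set 4 endothelial libraries of endoglin knockout (KO) mice taken 4 weeks after tamoxifen against 4 KO libraries taken 2 weeks after it, across all genes. These 8 libraries are all of the KO libraries among the 17 in the study. The other 9 libraries are wild type (WT), 4 at 2 weeks and 5 at 4 weeks. KO animals were of the Cdh5:CreERT2-Eng f/f line, in which loxP sites surround exons 5 and 6 of Eng and the Cre, driven by the promoter of the vascular cadherin gene Cdh5, is switched on by tamoxifen in endothelium throughout the body. All animals of both genotypes are labelled as injected with tamoxifen, which was given at 8 weeks of age, and the labels do not say whether WT animals carried the Cre or the floxed alleles. The 2-week KO libraries came from 2 females (f1, f4) and 2 males (m2, m3), and the 4-week KO libraries from 1 female (f2) and 3 males (m1, m2, m3). The names used here join the sex to the number in the title. Endothelial cells were sorted from crushed long bones as CD45- Ter119- CD31+ Sca1+ cells, a gate that the series text gives without Sca1, and were sequenced by SmartSeq2, a full-length cDNA method that does not mark the strand.

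Endoglin is an accessory receptor of endothelium that presents BMP9, BMP10 and TGF-beta to the ALK1 kinase receptor, which acts through SMAD1 and SMAD5 on target genes such as the Id family. Its loss in humans and mice is known for malformed, dilated vessels. Bone marrow endothelium lines arterioles and wide, leaky sinusoids, and supplies factors that hold blood stem cells.

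All 2-week libraries and all 4-week libraries differ in time after tamoxifen and in the age of the animal, and no label gives a sorting or sequencing batch, so time and batch cannot be told apart. The labels do not state that each library is a separate animal, and p-values measure only the spread between these libraries. In bulk libraries fewer cells of a type and less RNA per cell cannot be told apart.

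Eng, the targeted gene (GRCm38 chromosome 2, 32646595 to 32682669), was read at 225, 266, 347 and 259 CPM (counts scaled to a common library total) in the 2-week KO libraries f1, f4, m2 and m3. At 4 weeks it was read at 873, 322, 1647 and 274 CPM in f2, m1, m2 and m3. The times overlapped, and the difference did not pass (274 ± 51.8 against 779 ± 640 CPM, mean ± SD, n = 4 each, two-sided exact permutation p = 0.143). In WT libraries Eng ranged from 705 to 1307 CPM at 2 weeks and from 2400 to 2735 CPM at 4 weeks, above every KO library of the same time. The count covers the whole gene, so it does not show the deleted exons themselves. Among the KO libraries, f2 and m2 at 4 weeks had the highest Eng levels.

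The sorted cells carried the defining endothelial transcripts in every library. Pecam1, which encodes CD31, had 990, 688, 988 and 1010 CPM at 2 weeks and 2325, 3004, 2784 and 2560 CPM at 4 weeks. Cdh5 had 323, 199, 193 and 200 CPM at 2 weeks and 680, 620, 583 and 718 CPM at 4 weeks. Both were higher in every 4-week library (exact permutation p = 0.0286 each, the smallest that 4 against 4 libraries allow, adjusted p = 0.0393 over 11 library measures). Ly6a, which encodes Sca1, ranged from 1481 to 1823 CPM at 2 weeks and from 2060 to 2990 CPM at 4 weeks. Its CPM did not overlap between the times either, but after the scaling factors of the gene-wise test its log2 fold change of 0.28 (SE 0.159) did not pass (adjusted p = 0.417). Ptprc, which encodes CD45, lay between 0 and 0.247 CPM in 3 of the 2-week libraries, at 15.6 CPM in m2, and between 0.112 and 0.910 CPM at 4 weeks.

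The 2 sets of libraries differed in composition before any gene was tested. A 2-week KO library held counts for 10886 to 13583 genes and a 4-week KO library for 17020 to 18816, although the 2-week libraries had totals of 26705337 to 36374553 counts and the 4-week libraries of 20477400 to 26803629. The share of counts in the 10 largest genes was 26.4% to 33.3% in 2-week KO libraries, against 9.70% to 13.1% in 4-week ones. For genes of the mitochondrial genome the shares were 22.2% to 29.5% and 5.62% to 8.74%. Genes detected, the share of the 10 largest genes and the mitochondrial share each gave an exact permutation p of 0.0286 (adjusted 0.0393). WT libraries split the same way, with 11149 to 13424 genes at 2 weeks and 15996 to 21235 at 4 weeks. The spread between libraries of a group was also unequal: over 6415 genes with more than 3 counts in all 8 KO libraries, the median SD of the log2 level was 0.69 at 2 weeks and 0.34 at 4 weeks.

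**Figure D1:**
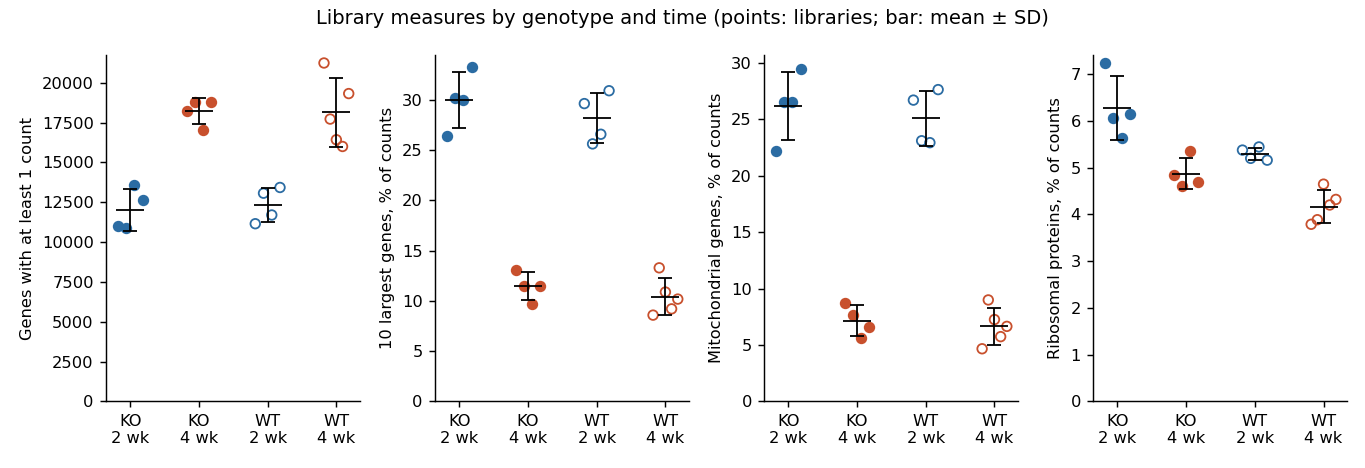
Genes with at least 1 count, and the share of counts in the 10 largest genes, in mitochondrial genes and in ribosomal protein genes, for each library by genotype and time; points are libraries and bars give the mean ± SD. The 2-week KO libraries hold 10886 to 13583 genes and the 4-week KO libraries 17020 to 18816.

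Libraries stood apart within both times. At 2 weeks, m2 and m3 carried neutrophil transcripts: the summed level of 16 neutrophil markers was 4543 and 3451 CPM there, 107 and 268 CPM in f1 and f4, and 41.1 to 116 CPM at 4 weeks. At 4 weeks, f2 and m3 differed from m1 and m2 in several endothelial genes. Kdr, which encodes the main VEGF receptor, was at 416 and 517 CPM in f2 and m3 and at 2179 and 1646 CPM in m1 and m2, against 368 to 567 CPM at 2 weeks. The main counts are therefore also given without both libraries of each pair. The genes that show the 4-week split were picked after their values were seen.

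A gene-wise edgeR quasi-likelihood test over 13515 genes, adjusted by the Benjamini-Hochberg method at 0.05, found 771 genes higher at 4 weeks (5.70% of those tested) and 251 lower (1.86%). The median log2 fold change of all tested genes was 0.34, and the shares quoted are the background for the gene groups described next. No 2-week KO library had more than 3 counts for 546 of the 771 higher genes, out of 961 tested genes of this kind. The low-count filter kept no gene that was at or under 3 counts in every 4-week KO library, so the reverse case could not be called. Among the 6415 genes over 3 counts in all 8 libraries the direction was the other way, with 180 higher (2.81%), 250 lower (3.90%) and a median log2 fold change of -0.10. The CPM of the 2 times did not overlap for 743 of the 771 higher genes and for 159 of the 251 lower genes. The same share over all tested genes is not given here, so these counts do not set the called genes apart. CPM also leaves out the scaling factors of the test, whose mean log2 value was 0.32 higher at 4 weeks. When libraries were scaled by their totals alone, 1055 genes were higher and 120 lower, so that 89.8% of calls were higher in place of 75.4%, and the median of all tested genes moved to 0.66. Without 4-week f2 and m3 the test called 283 higher and 129 lower genes, of which 265 and 124 were among those called with all libraries. Without f2 alone it called 437 and 167, and without m3 alone 509 and 199. Without 2-week m2 and m3 it called 1151 and 203, of which 345 and 162 were shared.

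Detection followed the level of the gene. Of 3428 genes with a mean of 1 to 5 CPM at 4 weeks, 1233 had no 2-week KO library over 3 counts, while of 2734 genes at that level at 2 weeks 95 (3.47%) had no 4-week library over 3 counts. At 5 to 20 CPM the shares were 8.81% and 0.436%. At 20 to 100 CPM they were 0.472% and 0%, and from 100 CPM upward every gene was seen at both times. Values for genes under about 20 CPM thus rest on detection as much as on level, and the counts and medians of the gene groups include such genes, since they run over all tested members.

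**Figure D2:**
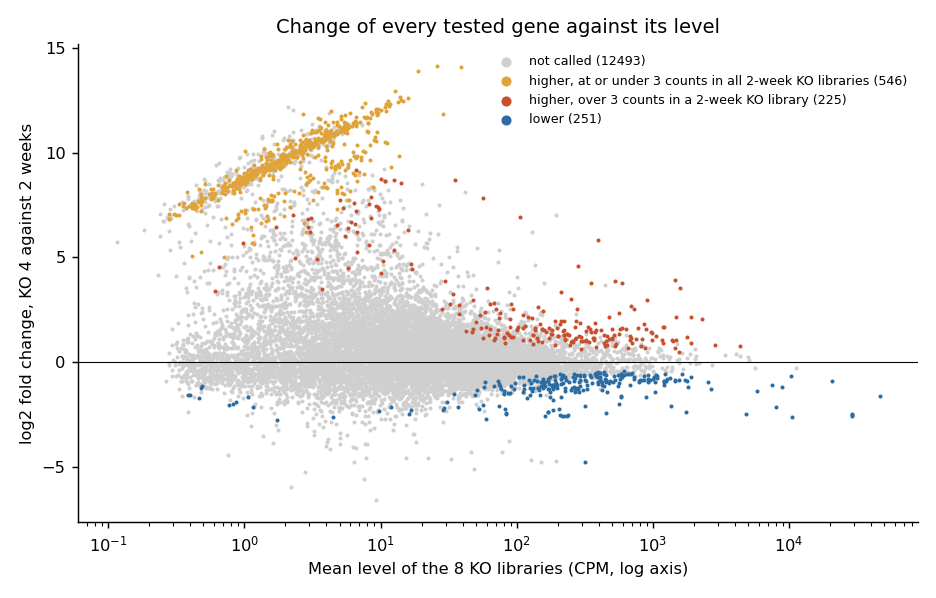
log2 fold change of KO at 4 against 2 weeks (vertical) against the mean level of the 8 KO libraries in CPM (horizontal, log axis) for 13515 tested genes; each point is a gene, coloured by its call. The 546 higher genes not over 3 counts in any KO library of 2 weeks form a band of large fitted values at low levels, and the 251 lower genes lie mostly at higher levels.

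The group with the highest median among those plotted was that of the immediate early genes, which cells switch on within minutes of growth factors, flow or stress. Of 27 tested members, 15 were higher, none was lower, and all 27 had a positive fold change, with a median log2 fold change of 2.54. Among the 21 members over 3 counts in all 8 KO libraries, 14 were higher and the median was 2.12. Junb, a subunit of the AP-1 transcription factor, had 122, 89.8, 147 and 198 CPM at 2 weeks and 1955, 3228, 3148 and 2647 CPM at 4 weeks. Every 4-week library was far above every 2-week library, and the log2 fold change was 3.92 (SE 0.312, adjusted p = 1.77e-05). Jun, its partner in AP-1, rose from 184, 160, 206 and 137 CPM to 991, 1382, 1659 and 1055 CPM (log2 fold change 2.54, SE 0.238, adjusted p = 3.65e-05). Fos, another AP-1 subunit, rose from 71.4 to 329 CPM to 2635 to 3462 CPM (3.53, SE 0.545, adjusted p = 0.00164). The groups did not overlap for any of these 3 genes.

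The members that rose also included the transcription factors Egr1, Egr2, Atf3, Klf2, Klf4 and Nr4a1, the matrix protein Ccn1, the feedback inhibitors Zfp36, Dusp1 and Nfkbia, and the early response genes Ier2 and Ier3. Egr1 was at 139 to 212 CPM at 2 weeks and 948 to 2275 CPM at 4 weeks. Ier3 had 24.6, 129, 63.2 and 42.0 CPM at 2 weeks and 953, 1127, 1236 and 1159 CPM at 4 weeks (log2 fold change 3.77, SE 0.480, adjusted p = 3.75e-04). Ccn1 had 29.3, 90.9, 35.3 and 65.3 CPM and then 956, 1050, 1077 and 894 CPM (3.85, SE 0.507, adjusted p = 4.82e-04). The 4-week values of Ier3 and Ccn1 varied little between libraries while their 2-week values spread several fold. Without 2-week m2 and m3, 10 members were higher, and without 4-week f2 and m3, 12. WT libraries showed 13 higher members and a median of 2.27.

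Other higher genes had at most 1 count in any 2-week KO library, and of those given here Egr2 alone is a member of the immediate early list. Arc, an immediate early gene best known from neurons, had 0 counts in every 2-week KO library and 74.0, 103, 97.6 and 39.3 CPM at 4 weeks, at least 816-fold above the mean level that 3 counts per library would give. Egr2 had 1 count in all 2-week KO libraries together and 33.1, 86.0, 83.3 and 28.5 CPM at 4 weeks, a ratio of 7526 with a 95% counting interval of 1350 to 297319. Il6, the cytokine interleukin 6, had 0 counts at 2 weeks and 25.8, 35.7, 34.6 and 30.5 CPM at 4 weeks, at least 329-fold. Tnfsf9, the ligand of 4-1BB, a costimulatory receptor of T cells, had 0 counts and then 23.6, 88.0, 65.3 and 30.4 CPM, at least 540-fold. Leaving out 2-week m2 and m3, the calls of Il6 (adjusted p = 0.0963) and Tnfsf9 (adjusted p = 0.0708) were lost, as they were without 4-week f2 and m3 (0.148 and 0.0643). The call of Il6 was also lost whichever single KO library was left out (adjusted p = 0.0509 to 0.0906), and that of Tnfsf9 without f4 alone (0.0503). These were the 4 protein-coding genes that were not over 3 counts at 2 weeks and had the highest lowest level at 4 weeks. In WT at 2 weeks Arc was also at 0 in every library, while Il6 was seen in m3 and Tnfsf9, at 12.6 CPM, in f4.

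The letters of the cAMP response element (CRE, TGACGTCA, which reads the same on both strands) were searched in the 250 bases before the start of each gene, since several immediate early genes are known CREB targets. An exact match stood in 2 of 27 promoters of the 23 list members in the RefSeq table (GRCm38.p6) and in 1.55% of all 32851 promoters. The members with a match were Btg2, not called, and Dusp1, the MAP kinase phosphatase, which had 260 to 773 CPM at 2 weeks and 1310 to 1611 CPM at 4 weeks. The stretch before Dusp1 is shown with the match in capitals, at chr17:26508578-26508645 on the minus strand.
Dusp1: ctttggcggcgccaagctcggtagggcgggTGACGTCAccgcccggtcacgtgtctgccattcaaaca
The match begins 143 bases before the start that RefSeq gives, while GENCODE M21 has a longer Dusp1 transcript in which it lies 53513 bases inside the gene, in an intron. The other promoters searched for this list hold no such letters in this window, and the 5 list genes that are not in the table were not searched.

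Heat shock proteins and chaperones, which fold proteins and rise under proteotoxic stress, were higher in 8 of 20 tested members and lower in none, with a median log2 fold change of 0.95. Hspa5, the chaperone BiP of the endoplasmic reticulum, had 137, 104, 120 and 249 CPM at 2 weeks and 1011, 995, 862 and 1061 CPM at 4 weeks (log2 fold change 2.36, SE 0.328, adjusted p = 7.01e-04). Hsp90aa1, the inducible cytosolic HSP90, rose from 61.0 to 99.8 CPM to 270 to 378 CPM (1.61, SE 0.242, adjusted p = 0.00132). Dnajb1, an HSP40 partner of HSP70, rose from 48.7 to 152 CPM to 318 to 405 CPM (1.96, SE 0.298, adjusted p = 0.00147). Hsp90b1, Hspa8, Hsp90ab1 and Dnaja1 rose by log2 fold changes of 0.67 to 1.31. None of these 7 overlapped between the times. Hspa1a, the inducible HSP70, had 0, 0, 10.1 and 1.18 CPM at 2 weeks and 510, 319, 512 and 205 CPM at 4 weeks, but did not pass (adjusted p = 0.0551). Its near-identical copy Hspa1b passed at 1.25 to 10.1 CPM, and reads that could belong to either copy make both values uncertain. Without 4-week f2 and m3, 4 members were higher, and without 2-week m2 and m3, 8.

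The pair of inverted GAA units that forms the core of a heat shock element (HSE, GAANNTTC, the same on both strands) stood in 6 of 22 promoters of the 16 list members in the table, and in 6.69% of all promoters. Matches stood before Dnaja1, Hspa1a, Hspa1b, Hspb1, Hspd1 and Hspe1, of which Dnaja1 and Hspa1b were called higher. The 2 stretches are shown with the match in capitals, for Dnaja1 at chr4:40722314-40722381 on the plus strand and for Hspa1b at chr17:34959305-34959372 on the minus strand.
Dnaja1: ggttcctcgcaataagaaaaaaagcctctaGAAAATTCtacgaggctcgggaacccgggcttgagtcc
Hspa1b: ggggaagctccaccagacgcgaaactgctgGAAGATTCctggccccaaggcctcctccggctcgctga
By RefSeq's starts the matches begin 124 bases before Dnaja1 and 104 before Hspa1b. GENCODE M21 gives Hspa1b the same start, but places the Dnaja1 match 194 bases inside the gene, in the first exon of a processed transcript, and in an exon of the noncoding gene Gm6297 on the other strand. Dnaja1, an HSP40 cofactor of HSP70, had 198, 136, 131 and 150 CPM at 2 weeks and 382, 365, 365 and 340 CPM at 4 weeks (log2 fold change 0.94, SE 0.163, adjusted p = 0.00317).

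Endothelial identity genes were higher in 10 of 20 tested members and lower in none, with a median log2 fold change of 0.94. The members that rose were Cdh5, Mmrn2, Pecam1, Esam, Emcn, Cldn5, Sox17, Ecscr, Robo4 and Ramp2. Cdh5, the adherens junction cadherin, changed by 1.27 on the log2 scale (SE 0.152, adjusted p = 2.30e-04). Mmrn2, a matrix protein of endothelium, had 248, 211, 263 and 339 CPM at 2 weeks and 828, 914, 740 and 944 CPM at 4 weeks (1.35, SE 0.191, adjusted p = 8.17e-04). Emcn, the sialomucin endomucin of sinusoids and veins, rose from 181 to 310 CPM to 610 to 1207 CPM. The summed level of the 20 genes was 6489 to 8118 CPM at 2 weeks and 16018 to 18319 CPM at 4 weeks. Kdr and Tek, the receptors of VEGF and angiopoietin, did not pass: Tek had 88.8, 186, 173 and 84.1 CPM and then 121, 551, 539 and 110 CPM, with f2 and m3 inside the 2-week range.

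Vessel subtype genes gave fewer calls. None of 13 tested sinusoidal and venous genes passed, though all 13 had a positive fold change (median 1.15), and 3 passed as higher without 2-week m2 alone. The median was 2.01 without 2-week m3 alone. Many were hardly seen at 2 weeks: Stab2, a sinusoidal scavenger receptor, had 0, 4.89, 0.0337 and 0 CPM and then 24.2, 32.2 and 37.7 CPM in m1, m2 and m3 and less in f2 (adjusted p = 0.591). Of 18 arterial genes 3 were higher, the sialomucin Podxl, the transcription factor Sox17 and the VEGF and semaphorin receptor Nrp1. Podxl rose from 94.5 to 142 CPM to 290 to 434 CPM (log2 fold change 1.31, SE 0.207, adjusted p = 0.00189), and Sox17 from 176 to 301 CPM to 500 to 566 CPM (1.04, SE 0.192, adjusted p = 0.00456). Neither pair of groups overlapped. Podxl also passed without 2-week m2 and m3, while Sox17 (adjusted p = 0.0504) and Nrp1 (adjusted p = 0.0920) did not.

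In the TGF-beta and BMP pathway, 3 of 24 tested genes were higher and none was lower, with a median of 1.07. The 3 were Id3, Id1 and Id2, inhibitors of helix-loop-helix factors and direct targets of BMP-activated SMADs. Id3 had 1038, 793, 860 and 671 CPM at 2 weeks and 2113, 1982, 2133 and 2277 CPM at 4 weeks (log2 fold change 1.06, SE 0.107, adjusted p = 5.98e-05). Id1 had 666, 332, 366 and 494 CPM and then 1228, 1109, 1352 and 1153 CPM (1.09, SE 0.187, adjusted p = 0.00300). Id2 had 94.0, 64.0, 76.5 and 65.4 CPM and then 255, 224, 247 and 288 CPM (1.41, SE 0.297, adjusted p = 0.0105). For each of the 3 the groups did not overlap, and the 4-week values were close together. Id2 did not pass without 2-week m2 and m3 (adjusted p = 0.0837), without 4-week f2 and m3 (adjusted p = 0.145) or without f2 alone (0.0511). In the list as a whole, 5 genes were higher without 2-week m2 and m3, and 2 without 4-week f2 and m3. Of the 24 genes, 12 were over 3 counts in all 8 KO libraries, with a median of 0.99. Among the receptors, Acvrl1, which encodes ALK1, had 103 to 242 CPM at 2 weeks and 378 to 587 CPM at 4 weeks (0.93, SE 0.381, adjusted p = 0.183). Bmpr2, the type II receptor, had 30.9 to 103 CPM and 61.7 to 110 CPM (adjusted p = 0.998), and Smad1 21.9 to 102 CPM and 26.7 to 54.4 CPM (adjusted p = 0.687).

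Of 25 VEGF, angiopoietin and Notch genes 3 were higher, Nrp1, the Notch target Hes1 and the phosphatase Ptprb, and none was lower (median 0.85). Hes1 had 22.8, 5.04, 11.6 and 36.3 CPM at 2 weeks and 272, 175, 142 and 61.1 CPM at 4 weeks (log2 fold change 2.75, SE 0.626, adjusted p = 0.0158). Ptprb, which restrains the angiopoietin receptor, rose from 324 to 497 CPM to 671 to 1316 CPM, with m1 and m2 at 1316 and 1313. Hes1 did not pass without 4-week f2 alone (adjusted p = 0.0602), nor Ptprb without 2-week m2 and m3 (adjusted p = 0.0982). Ptprb also did not pass without f1, f4, 2-week m3, 4-week m1 or 4-week m2 alone (adjusted p = 0.0539 to 0.0972), and without 2-week m2 alone 5 members of the list were higher. Of 15 junction genes 4 were higher, Cdh5, Pecam1, Esam and the tight junction claudin Cldn5, and 1 was lower. The lower gene, Ctnnb1, encodes beta-catenin and had 567 to 671 CPM at 2 weeks and 334 to 510 CPM at 4 weeks (-0.98, SE 0.187, adjusted p = 0.00579). Without 4-week f2 and m3, 5 junction genes passed as higher and none as lower, so the call of Ctnnb1 was lost.

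Basement membrane genes were higher in 4 of 16 tested members and lower in none, with a median log2 fold change of 1.37. Col4a1 and Col4a2, the chains of vascular type IV collagen, lie head to head on chromosome 8 and share a start region. Col4a1 had 485, 514, 422 and 564 CPM at 2 weeks and 1503, 2211, 2312 and 1707 CPM at 4 weeks (1.65, SE 0.257, adjusted p = 0.00174). Col4a2 had 581, 361, 531 and 367 CPM and then 1374, 1580, 1521 and 1489 CPM (1.41, SE 0.220, adjusted p = 0.00181). Hspg2, which encodes perlecan, rose from 72.9 to 96.0 CPM to 199 to 425 CPM, and the laminin chain Lama5 from 2.42 to 41.4 CPM to 114 to 130 CPM. All 4 were separated between the times. Without 2-week m2 and m3, 2 members passed as higher, and without 4-week f2 and m3, 2 passed as higher and 1 as lower. Hspg2 did not pass without f1 (adjusted p = 0.0571), 2-week m3 (0.0679) or 4-week m1 (0.0750) alone, nor Lama5 without 4-week f2 alone (0.0573).

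Of 18 lipid uptake and caveolae genes 4 were higher and 1 was lower, with a median of 0.17. This median ran from 0.05 without f1 to 0.53 without 2-week m2 when single KO libraries were left out. Over the 17 with more than 3 counts in all 8 KO libraries the median was 0.12, beside -0.10 for all such genes. Lpl, the lipase that frees fatty acids from lipoproteins, had 384, 385, 384 and 349 CPM at 2 weeks and 1142, 1436, 1493 and 1525 CPM at 4 weeks (log2 fold change 1.57, SE 0.237, adjusted p = 0.00133). Gpihbp1, its anchor on the capillary wall, had 553 to 1031 CPM and 1332 to 1735 CPM (log2 fold change 0.93, adjusted p = 0.00204). Plvap, the diaphragm protein of fenestrae, rose from 189 to 494 CPM to 919 to 1904 CPM, and the fatty acid transporter Cd36 from 2457 to 3121 CPM to 4567 to 8271 CPM. Cavin1, a coat protein of caveolae, fell from 1904 to 2306 CPM to 1024 to 1873 CPM (-0.89, SE 0.212, adjusted p = 0.0207). Without 4-week f2 and m3 Plvap did not pass (adjusted p = 0.135), nor did Cd36 without 2-week m2 and m3 (adjusted p = 0.0765) or m3 alone (0.0533). No member was lower without either pair, or without 4-week f2 or m3 alone.

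**Figure D3:**
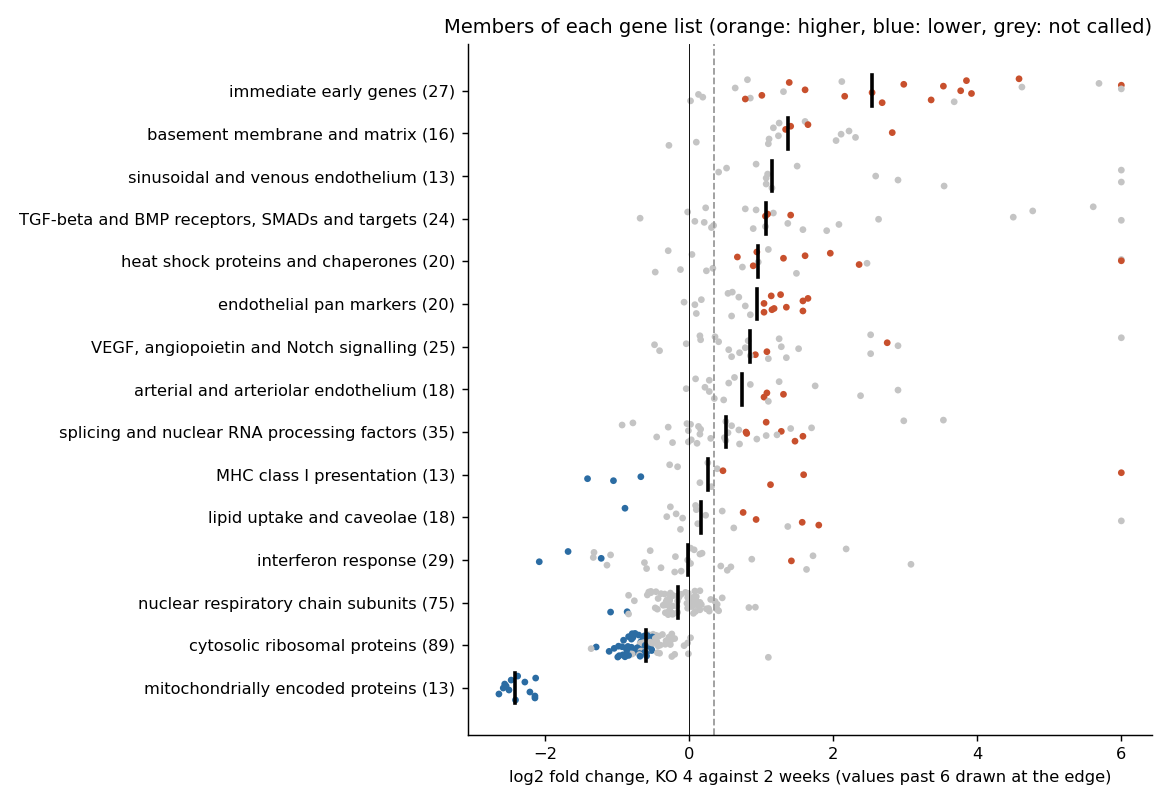
log2 fold change of KO at 4 against 2 weeks for the tested members of 15 gene lists (number tested in brackets); points are genes, orange where higher, blue where lower and grey where not called, thick black lines are list medians, and the dashed line marks the median of all tested genes, 0.34. Medians run from 2.54 for immediate early genes to -2.41 for mitochondrially encoded proteins.

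All 13 proteins encoded by the mitochondrial genome were lower at 4 weeks, with a median log2 fold change of -2.41. mt-Nd4, a subunit of complex I, had 14473, 18132, 18497 and 18629 CPM at 2 weeks and 3856, 3848, 2706 and 3549 CPM at 4 weeks (-2.64, SE 0.202, adjusted p = 1.77e-05). mt-Nd1, of the same complex, fell from 44408 to 50982 CPM to 7341 to 12156 CPM, and mt-Cytb of complex III from 45884 to 50185 CPM to 7426 to 12587 CPM. mt-Atp6, of the ATP synthase, fell from 246 to 320 CPM to 59.9 to 69.2 CPM (-2.38, SE 0.200, adjusted p = 1.77e-05), so low and high genes moved alike. No mitochondrial gene overlapped among these 4. The nuclear subunits of the same complexes did not follow: of 75 tested, 2 were lower, the succinate dehydrogenase subunits Sdhd and Sdhc, none was higher, and the median was -0.16, or 0.16 when libraries were scaled by totals alone and 0.01 without f1. Sdhd had 153 to 241 CPM at 2 weeks and 105 to 144 CPM at 4 weeks (-1.09, SE 0.219, adjusted p = 0.00758). Sdhc did not pass when 6 of the 8 KO libraries were left out singly (adjusted p = 0.0567 to 0.114), when 1 subunit was lower for 5 of them and 4 were lower without 2-week m2. Without 2-week m2 and m3, or without 4-week f2 and m3, 11 of the 13 mitochondrial proteins passed as lower.

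Cytosolic ribosomal proteins were lower in 50 of 89 tested members and higher in none, with a median log2 fold change of -0.60. Rplp0, a stalk protein of the large subunit, had 4393, 3729, 3079 and 3129 CPM at 2 weeks and 1886, 1441, 1794 and 1977 CPM at 4 weeks (-1.29, SE 0.122, adjusted p = 3.65e-05). Rps3, of the small subunit, had 1955, 1966, 1583 and 1523 CPM and then 1125, 1019, 1225 and 1210 CPM. Eef2, the elongation factor that moves the ribosome along, had 2130, 2134, 2827 and 2139 CPM and then 1096, 1433, 1432 and 1223 CPM. Rack1, a scaffold on the small subunit, had 484, 477, 454 and 546 CPM and then 292, 315, 351 and 341 CPM. Every 2-week value of these 4 genes was above every 4-week value. The share of all counts in ribosomal proteins was 5.65% to 7.25% at 2 weeks and 4.61% to 5.35% at 4 weeks (exact permutation p = 0.0286, adjusted 0.0393). With libraries scaled by totals alone 17 members passed as lower and the median was -0.29, against 0.66 for all tested genes, and without 4-week f2 and m3 26 passed. Reads of these genes can be shared with their processed pseudogenes, so single values are uncertain. Of 23 ribosome biogenesis factors 1 was higher (Utp20) and none was lower. Without 2-week m3 alone 3 were higher, and without 2-week m2 and m3, 4. Of the 11 that were over 3 counts in all 8 KO libraries none was called, with a median of 0.27.

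Interferon response genes had 1 of 29 members higher and 3 lower, or 2 higher and 3 lower without 2-week m3 alone. Irf7, the factor that amplifies type I interferon, had 749, 392, 462 and 366 CPM at 2 weeks and 131, 145, 169 and 124 CPM at 4 weeks (log2 fold change -2.08, SE 0.223, adjusted p = 9.45e-05). Gbp3, a guanylate-binding protein, had 223, 300, 296 and 377 CPM and then 120, 155, 104 and 114 CPM (-1.68, SE 0.207, adjusted p = 3.16e-04), and Ifit3 138 to 297 CPM and 83.6 to 143 CPM (-1.22, SE 0.303, adjusted p = 0.0250). Irf1, which is also an early-response gene, went the other way, from 267, 155, 139 and 116 CPM to 358, 759, 496 and 530 CPM (1.42, SE 0.237, adjusted p = 0.00243). The call of Ifit3 was lost without f1 (adjusted p = 0.0554), 4-week f2 (0.0695), m1 (0.0672) or m2 (0.0623), and without 4-week f2 and m3 (0.0571). With 2-week m2 and m3 left out, 3 members were higher and 3 lower, and the median was -0.58. The median of the list, -0.02, changed sign with the scaling (0.04 with size factors, 0.30 with totals alone). Isg15, a ubiquitin-like protein of the response, had 3.87 to 14.6 CPM at 2 weeks and 5.61 to 17.1 CPM at 4 weeks, and did not pass (adjusted p = 0.998).

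Of 13 tested MHC class I genes 4 were higher, 3 were lower and 6 were not called. The 3 lower members, Psmb8, Psmb9 and Psmb10, are the catalytic subunits of the immunoproteasome. Psmb8 had 816, 539, 630 and 546 CPM at 2 weeks and 309, 296, 246 and 285 CPM at 4 weeks (log2 fold change -1.41, SE 0.183, adjusted p = 4.32e-04), and Psmb9 fell from 173 to 263 CPM to 119 to 135 CPM (-1.05, SE 0.143, adjusted p = 5.76e-04). The 4 higher members were Pdia3 and Tap2, which load peptides, the heavy chain H2-K1 and the transactivator Nlrc5. Pdia3 rose from 166 to 269 CPM to 581 to 1041 CPM (1.59, SE 0.254, adjusted p = 0.00198), and Tap2 from 56.1 to 116 CPM to 233 to 296 CPM (1.13, SE 0.256, adjusted p = 0.0151). Nlrc5 had 0 counts in every 2-week KO library. Without 4-week f2 alone, 2 members passed as higher and 2 as lower, and Tap2 did not pass (adjusted p = 0.0769). The constitutive proteasome had 1 of 31 members higher, Psmc6, and 1 lower, Psmc5. Psmc6 did not pass without f4, 2-week m3, 4-week f2 or 4-week m2 (adjusted p = 0.0526 to 0.0925), nor Psmc5 without 2-week m3, 4-week m1 or 4-week m2 (0.0586 to 0.0619), so that neither was called without 4-week m2.

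Splicing and nuclear RNA processing factors were higher in 6 of 35 members and lower in none (median 0.51). They were Srsf5, Ddx5, Rbm39, Srrm2, Rbm25 and Sf3b1. Srsf5, a splicing factor of the SR family, rose from 59.5 to 131 CPM to 277 to 409 CPM (log2 fold change 1.47, SE 0.261, adjusted p = 0.00360). Malat1, a long RNA kept in the nucleus, had 790, 732, 521 and 476 CPM at 2 weeks and 4877, 1954, 1343 and 4578 CPM at 4 weeks (2.15, SE 0.415, adjusted p = 0.00594), with f2 and m3 highest. Without these 2 libraries Malat1 did not pass (log2 fold change 1.26, adjusted p = 0.141). Kcnq1ot1, another nuclear RNA, was the other higher member of 5 tested. Without 2-week m2 and m3, 2 splicing factors passed as higher and 2 as lower, and without 4-week f2 and m3, 2 passed as higher. Leaving out any 1 of the 4-week libraries or 2-week m2 left 3 higher factors, and leaving out 2-week m3 left 2, with a median of 0.29. Without 2-week m2 alone 1 factor was lower. The call of Srrm2 was lost whichever single KO library was left out (adjusted p = 0.0556 to 0.178), and 1 of the 5 nuclear RNAs then passed in place of 2. Rbm39 did not pass without 2-week m3 (0.0578) or 4-week f2 (0.0571) alone.

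Of 21 tested p53 targets 3 were higher, the kinase Plk2, the epoxide hydrolase Ephx1 and the death receptor Fas, and none was lower. Without 4-week f2 and m3, 1 of the list passed, and 1 was lower without f4 or without 4-week m1. Fas did not pass without 2-week m3 (adjusted p = 0.0514) or 4-week f2 (0.0791) alone, nor without either pair. Ephx1 did not pass without 2-week m2 and m3 (adjusted p = 0.0578) or without 4-week f2 and m3 (0.106). Plk2 had 96.9, 182, 168 and 134 CPM at 2 weeks and 654, 898, 1001 and 697 CPM at 4 weeks (log2 fold change 2.15, SE 0.307, adjusted p = 8.52e-04). Of 21 cell cycle genes, the mitotic kinase Aurka, with 0 counts at 2 weeks, was higher and the cyclin Ccnd1 was lower, from 148 to 336 CPM to 76.5 to 163 CPM. Ccnd1 did not pass when 6 of the 8 KO libraries were left out singly (adjusted p = 0.0506 to 0.0824), nor without 2-week m2 and m3 (-0.90, adjusted p = 0.204), when 4 cell cycle genes were higher and none was lower. With 2-week m2 or m3 left out singly, 2 cell cycle genes were higher. Glycolysis and hypoxia genes gave no call among 18 tested, with a median of 0.15 that ran from -0.01 without 4-week m2 to 0.31 without 2-week m2 and was 0.50 with totals alone. None of 14 coagulation genes was called (median 1.01), while 2 were higher without f1. Chromatin regulators had 2 of 35 higher, Setd1a and Ezh2, both with 0 counts at 2 weeks, and angiocrine niche factors 1 of 13, Bmp2, likewise. In the chromatin list 1 gene passed without f1 or any 1 of the 4-week libraries, and 2 niche factors passed without 2-week m3.

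Among the 165 protein-coding, nuclear-encoded higher genes that were well covered and did not overlap between the times, those with the smallest p included Junb, Jun, Id3, Actn4, Cdh5 and Eif1. Actn4, the actin crosslinker alpha-actinin-4, had 368, 224, 330 and 374 CPM at 2 weeks and 1107, 1254, 1405 and 1167 CPM at 4 weeks. Eif1, a factor that selects the start codon, had 394, 314, 345 and 323 CPM and then 657, 725, 831 and 625 CPM. For both genes every 4-week library was above every 2-week library.

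Among the 108 lower genes of the same kind, the 8 with the smallest p were Cox7a2l, Rplp0, Myo1h, Kctd10, Rps3, Eef2, Irf7 and Rack1. Cox7a2l, which links respiratory complexes III and IV, had 833, 676, 927 and 868 CPM at 2 weeks and 339, 305, 381 and 331 CPM at 4 weeks. Kctd10, a substrate adaptor of cullin-3 ubiquitin ligases, had 1173, 1146, 1302 and 1388 CPM and then 401, 637, 552 and 469 CPM. Myo1h overlaps Kctd10 on the other strand, from which its counts of 763 to 934 and 265 to 413 CPM cannot be told apart. All 4-week values of these genes were below all 2-week values.

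**Figure D4:**
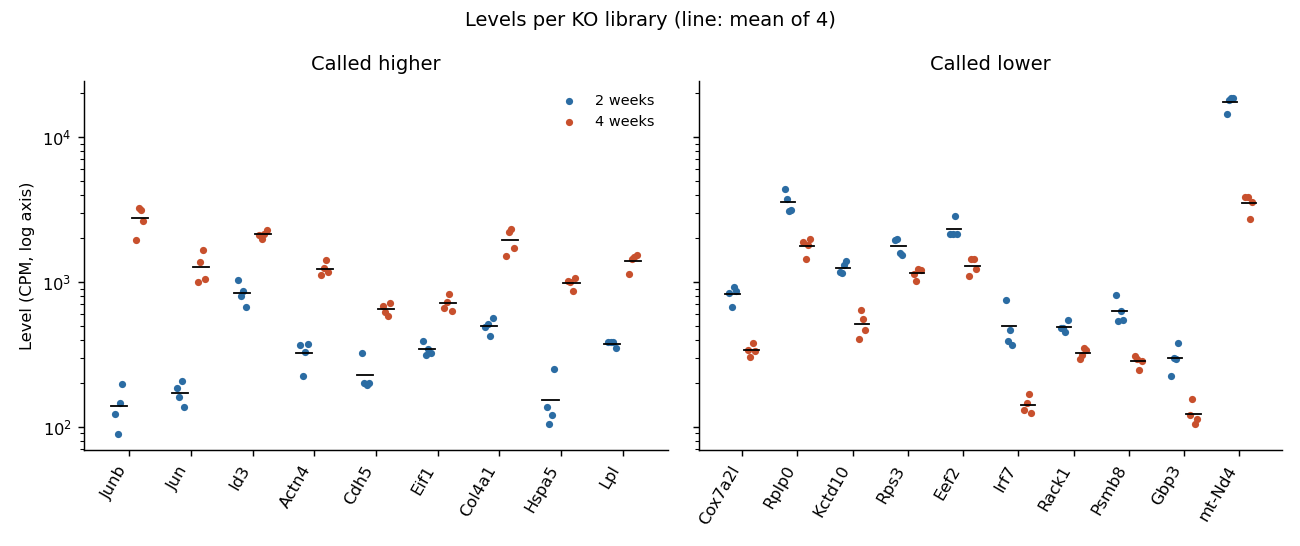
Level in CPM (log axis) of 9 genes called higher (left) and 10 called lower (right) in each KO library, 2 weeks in blue and 4 weeks in orange; points are libraries and lines are means of 4. Within each gene the 2 times do not overlap, as for Junb (89.8 to 198 and 1955 to 3228 CPM) and Irf7 (366 to 749 and 124 to 169 CPM).

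Markers of other cells moved in some libraries. S100a8, a neutrophil calcium-binding protein, had 57.0, 87.3, 1442 and 875 CPM at 2 weeks and 18.9, 29.6, 32.9 and 4.97 CPM at 4 weeks (log2 fold change -4.78, SE 0.914, adjusted p = 0.00567), and was the 1 called member of 9 tested neutrophil markers. It did not pass without 2-week m2 and m3 (-2.76, adjusted p = 0.0841), when no marker was lower and the median of the list moved from -4.66 to -2.19. Without f1 alone 3 markers were lower, and without 4-week f2 alone 2. Summed erythroid markers were at 278 to 1259 CPM at 2 weeks and 640 to 2940 CPM at 4 weeks, with none of 9 called, and B cell markers at 113 to 186 and 134 to 166 CPM, with none of 4 called. T and NK cell markers summed to at most 9.28 CPM in any KO library, with 6 of 12, among them Cd3e and Cd8a, at 0 throughout. Monocyte and macrophage markers summed to 92.8 to 464 and 152 to 242 CPM, where C1qb and Cd14 of 9 tested were called higher from 0 counts at 2 weeks. The 2 members over 3 counts in all 8 KO libraries went the other way, with a median log2 fold change of -3.17, and neither was called. In that list 1 gene passed in place of 2 for 7 of the 8 single KO libraries left out. Summed stromal markers ran from 1231 to 1537 CPM at 2 weeks and were 1358, 3000, 3549 and 1389 CPM at 4 weeks, and mural markers from 965 to 1190 CPM and then 938, 1675, 2284 and 897 CPM, again with m1 and m2 high. Much of this split came from single members. Cxcl12 of the stromal list had 2006 and 2595 CPM in 4-week m1 and m2 and 818 and 855 CPM in f2 and m3. Rgs5 of the mural list had 1205 and 1615 CPM and 310 and 284 CPM. Which cells made these transcripts was not tested. Of the stromal and mural genes, the stromal factor Foxc1 was the 1 called gene (higher from 0 counts). Without f1 alone 2 stromal genes and 1 mural gene were higher, and without f4 alone 1 stromal gene was higher and 1 lower. Platelet, progenitor and adipocyte lists gave no call among 4, 6 and 4 tested, and of 2 tested chondrocyte genes Comp was higher from 1 count. With 2-week m3 left out, 1 progenitor and 1 erythroid gene were higher. So were 1 progenitor gene without 4-week m1 and 1 erythroid gene without f4. What these cells contributed to the other gene groups was not tested, beyond the counts given without m2 and m3 of 2 weeks.

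The change also went with the length of the transcript. Among genes over 3 counts in all 8 KO libraries, the median log2 fold change in 5 bins of transcript length was -0.38, -0.13, -0.04, -0.04 and 0.18 from the shortest to the longest. In the same order 5.38%, 6.33%, 3.59%, 2.58% and 1.56% were called lower. The shares called higher were 0.546%, 3.98%, 3.51%, 3.04% and 2.97%, so that only the shortest bin stood apart and the share did not rise over the other 4. By class, 884 processed pseudogenes had a median of -0.42, 242 long intergenic RNAs 0.78 and 11039 protein-coding genes 0.39. Ribosomal proteins and many respiratory chain subunits are short transcripts, and the part of length in their values was not tested.

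WT libraries gave the same test 776 higher (5.74%) and 310 lower genes (2.29%) at 4 against 2 weeks. Of the KO calls, 397 higher genes (51.5% of the KO calls and 51.2% of the WT calls) and 203 lower genes (80.9% and 65.5%) were called the same way in WT, and no gene was called in opposite directions. Over the 5470 genes with more than 3 counts in all 17 libraries, the fold changes of KO and WT had a Pearson r of 0.669 and a Spearman rho of 0.648, and 74.2% had the same sign. Genes of the same libraries are not independent replicates, so these values are a description, and over all 13515 tested genes r was 0.377. WT medians lay close to those of KO for mitochondrial proteins (-2.41 in both), ribosomal proteins (-0.53) and endothelial identity genes (0.87). They lay further apart in other lists, among them neutrophil markers (-4.66 in KO and -0.69 in WT), mural markers (0.30 and 1.46) and nuclear long RNAs (2.15 and 3.17). Ribosome biogenesis factors (1.10 and 0.54), arterial genes (0.74 and 0.33) and VEGF, angiopoietin and Notch genes (0.85 and 1.27) also lay apart. These differences of medians were not tested.

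**Figure D5:**
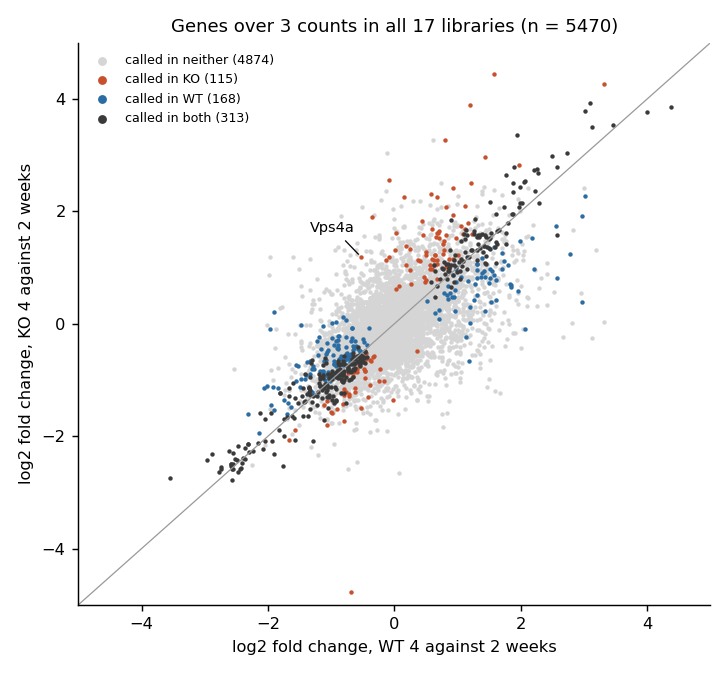
log2 fold change at 4 against 2 weeks in KO (vertical) and WT (horizontal) for the 5470 genes over 3 counts in all 17 libraries; points are genes, coloured by where they were called, and the line marks equal change. Of the 5470 genes 313 were called in both genotypes, and Vps4a is the 1 gene of the 5470 whose change differed by the test.

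The difference between the KO change and the WT change passed for 14 genes (0.104%), 11 larger and 3 smaller in KO, while 1281 had an unadjusted p under 0.05. Of the 14, 13 were at or under 3 counts in a whole 2-week group, so they rest on detection there. Reep4, a protein of the endoplasmic reticulum, had 0 counts in all 2-week KO libraries and 28.6, 20.6, 18.6 and 20.7 CPM at 4 weeks, at least 230-fold, while WT had 16.2 to 36.5 CPM at 2 weeks and 11.9 to 31.1 CPM at 4 weeks (adjusted p of the difference 0.00185). Tmem175, a lysosomal potassium channel, had 0 counts and then 18.9, 31.0, 25.2 and 18.8 CPM, at least 244-fold, against 5.68 to 18.4 and 13.6 to 44.9 CPM in WT (adjusted p of the difference 0.00355). Haus4, Itsn1 and Prkcq showed the same layout. Ces2e, a carboxylesterase, was the reverse case: it had 36.7, 41.4, 28.1 and 6.74 CPM in KO at 2 weeks and 36.1, 26.2, 16.7 and 80.4 CPM at 4 weeks, but 0 counts in WT at 2 weeks. Zfp810 and Dnajb4, with at most 1 count in any 2-week WT library, were likewise seen in KO at 2 weeks, at 0.640 to 51.6 CPM and 0.0374 to 42.5 CPM.

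Vps4a, an ATPase that takes ESCRT-III filaments apart, was the 1 gene of the 14 that was over 3 counts in all 17 libraries. It had 35.1, 56.8, 46.5 and 34.4 CPM in KO at 2 weeks and 113, 131, 108 and 125 CPM in KO at 4 weeks (log2 fold change 1.19, SE 0.206, adjusted p = 0.00297). In WT it ranged from 112 to 164 CPM at 2 weeks and from 91.4 to 123 CPM at 4 weeks (-0.53, SE 0.190, adjusted p = 0.120). The 2-week KO libraries were thus the low group, with no overlap with any other library. The difference of the changes was 1.72 (SE 0.278, adjusted p = 0.0275). Over 22 alternatives the difference for Vps4a was 1.59 to 1.84 and passed in 13. It did not pass among genes with at least 10 counts in every library (adjusted p = 0.283), with limma voom (0.193), with no low-count filter (0.173), without 4-week f2 and m3 (0.215), or without any 1 of the 4-week KO libraries (0.0514 to 0.0926).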

How the data were processed

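The deposited files hold raw read counts per gene, 1 table for each of 17 SmartSeq2 libraries, which the authors made with cutadapt, STAR and HTSeq 0.6.1p1, per the submitters' processing notes. These notes name the builds GRCm38 and mm10, and the strand setting is not given in the sources used here. Gene positions came from GENCODE M21 (GRCm38) and matched 49326 of 49585 genes.

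Counts were tested with edgeR 4.0.16 in R 4.3.3 by quasi-likelihood with robust dispersion, TMM scaling and 1 mean per genotype and time plus sex, over all 17 libraries. The filter of edgeR on genotype left 13515 genes, with Benjamini-Hochberg adjustment and a threshold of 0.05. The approach was tested on simulated data with the same spread for all genes and groups and no genes absent at either time. The libraries differ from that setting in both respects, so the simulation does not show how the test handles such genes. Each SE was worked back from the test, as the absolute log2 fold change divided by the square root of the F statistic, and is not a separate estimate. Single values were compared by two-sided exact permutation over 70 assignments. Levels are CPM of the library total. A gene was taken as over the floor with more than 3 counts. Counting intervals cover counting error only.

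Genes were named as the sorting markers, the 8 smallest p-values in each direction among protein-coding nuclear genes with a mean of at least 50 counts at both times and no overlap, up to 4 genes not over the floor at 1 time, up to 4 called members of each list, and up to 5 genes in each direction for the difference between genotypes. Other members are given by their calls, and a few uncalled ones were chosen after their values were seen. Some genes that this rule names are not reported here. Members and lists were chosen with earlier results of these data known. Alternatives were other scalings, filters and tools (DESeq2 1.42.0, limma 3.58.1), a thinned depth, other terms and left-out libraries. Scaling by totals and leaving out 4-week f2 and m3 were added after seeing the data. No 2 KO libraries agreed within sampling noise.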

Additional observations from a re-analysis of the deposited data

Results flagged for a closer look

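In 16 of 205 groups of 4 libraries, 1 library lay apart from the other 3 by more than the 95% critical value of Dixon's test, which chance gives in about 1 group in 20. At 2 weeks, f1 was high in Cdh5 (323 CPM, the others 193 to 200), Sox17 (301, the others 176 to 189) and Cldn5 (556, the others 325 to 345), and low in mt-Nd4 (14473, the others 18132 to 18629). Library f4 was low in Pecam1 (688 CPM, the others 988 to 1010) and in the MHC class II chain Cd74 (0, the others 13.9 to 16.8). It was high in the platelet factor Pf4 (16.7 CPM, the others 0 to 1.72) and the smooth muscle gene Tagln (296, the others 100 to 116). Library m2 was high in Ptprc (15.6 CPM, the others 0 to 0.247), Eef2 (2827, the others 2130 to 2139) and the cytokine receptor Il6st (133, the others 91.6 to 98.3), and m3 was low in Lpl (349, the others 384 to 385).

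At 4 weeks, m3 was high in Sdhd (144 CPM, the others 105 to 109), m2 in Rbm39 (347, the others 326 to 329) and the lipase Pnpla2 (356, the others 211 to 234), and m1 was low in Gpihbp1 (1332, the others 1704 to 1735).

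The change from 2 to 4 weeks differed between KO and WT for 14 genes by the test of the difference. The fitted differences on the log2 scale were 12.76 for Reep4, 11.64 for Tmem175, 10.82 for Haus4, 12.27 for Itsn1 and 10.81 for Prkcq, and -12.48 for Ces2e, -11.98 for Zfp810 and -11.36 for Dnajb4. These sizes depend on the prior count, since 1 group of each gene had at most 1 count in any library.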

How the results depend on the processing

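Against 771 higher, 251 lower and 14 differing genes, DESeq2 called 1684, 460 and 929. No low-count filter gave 393 higher and 6 differing genes, at least 10 counts in every library 305 and 0, and limma voom 8 differing. All but DESeq2 and voom used edgeR, which with all genes and libraries gave 1281 differences at an unadjusted p under 0.05. The 8 KO libraries alone gave 165 lower genes, total counts alone 120, and male KO libraries alone 12 higher and 16 lower. Without both 2-week libraries rich in neutrophil transcripts 278 genes differed, and without 4-week f2 and m3 there were 283 higher, 129 lower and 3 differing. Leaving out each KO library gave 437 to 1054 higher, 167 to 246 lower and 7 to 52 differing genes, lowest for the higher genes without 4-week f2. With voom the median log2 fold change of all tested genes was 1.30 in place of 0.34, and list medians moved with it, such as 3.20 for sinusoidal and venous genes (1.15 with edgeR), 1.85 for TGF-beta and BMP genes (1.07) and 2.16 for chromatin regulators (0.90). Of 34 list medians, 15 moved with voom by more than the spread between libraries, 16 with total counts alone and 7 without 2-week m2 and m3. The cause of these shifts was not tested. No gene was called in the opposite direction under any of these settings.

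With the replicate block 36 genes were higher, 68 lower and 0 differed. The shared numbers m2 and m3 gave correlations of 0.0275 and -0.0189, so the samples share only a number. The difference for Vps4a was then 1.83 (adjusted p = 0.973).

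None of the named genes whose fold change changed sign was called. Ces2e was at -0.52 without 2-week m2 and m3, -0.62 without 4-week f2 and m3, -0.20 without 2-week m3 and -0.31 without 4-week m3, and at most 0.49 (without 4-week m2). Dnajb4 was at -0.03 in KO alone, -0.32 without 2-week m2 and m3, -0.30 without f1, -0.20 without 2-week m3 and -0.23 without 4-week m2, and at most 0.97 (without f4). With total counts alone Ldha was at 0.18, Ebf1 at 0.17 and Rgs5 at 0.12. Ebf1 was at 0.07 without 2-week m2 and m3 and 0.02 without m3. Rgs5 was at 0.56 without 4-week f2 and m3, 0.12 without f2 and 0.05 without m3, and at lowest -0.67 (without 4-week m2). Tagln was at -0.06 without 2-week m2 and m3 and -0.03 without f1, and at most 0.52 (without f4), Hba-a1 at -0.12 in males, and Cfd at 2.35 with voom and 0.10 in males. Without 4-week f2 and m3 Ly6a was at -0.01 and the MHC class I median at -0.07. Levels under about 20 CPM are limited by detection at 2 weeks.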

Other observations

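The split among the 4-week libraries was seen in both genotypes and was noticed after the values were seen. Kdr was at 416 and 517 CPM in KO f2 and m3 and at 2179 and 1646 CPM in KO m1 and m2. In WT at 4 weeks it was at 500 and 626 CPM in f3 and m3 and at 2113, 1940 and 1789 CPM in f, m1 and m2. Tek had 235 and 272 CPM in WT f3 and m3 and 663, 734 and 600 CPM in f, m1 and m2. Malat1 went the other way, with 4010 and 4119 CPM in WT f3 and m3 and 1638, 2145 and 1540 CPM in f, m1 and m2. The labels give nothing that sets these libraries apart.

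Bmp2, a ligand of the BMP pathway, had 0 counts in all 2-week KO libraries and 25.1, 17.8, 18.7 and 30.2 CPM in KO at 4 weeks. In WT it ranged from 0 to 28.9 CPM at 2 weeks and up to 17.9 CPM at 4 weeks, when each WT library held counts. The difference between the genotypes did not pass (adjusted p = 0.158).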
